A study of Mus musculus with 8 samples.

Results

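The E proteins and their Id inhibitors are 2 small families of helix-loop-helix proteins, represented here by Tcf3, Tcf4 and Tcf12 (E proteins) and by Id1, Id2 and Id3 (Id proteins). They were chosen by gene symbol from the processed gene table, where all 6 were found among 23997 genes. Of the 6, 5 reached 100 fragments in the higher of the table's 2 columns, as did 9582 genes in all, and Id1 did not. The study sequenced RNA of marginal zone B cells (MZBs), a splenic B cell type that meets antigen carried in the blood, from C57BL/6 mice. Its labels list 4 libraries of ACKR3+ and 4 of ACKR3- cells, with 4 mice in each group and the names given as genotypes, and the sample titles name the same groups as GFP positive and GFP negative. ACKR3 is an atypical chemokine receptor that removes CXCL12, and the study set the transcripts of MZBs that carry it against those of MZBs that do not. The sources used here do not give the allele that carries GFP, the sort gate, or the age and sex of the mice.

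For every gene the processed table gives an estimated fragment count and its variance in 2 conditions, named q1 and q2. Neither name matches a label, so the columns are not assigned to ACKR3+ or ACKR3- cells, and no value below says whether a transcript was higher with or without ACKR3. The counts summed to 16653774 in q2 and 16877559 in q1, and the depth of single libraries is unknown. The receptor gene differed in the table, with 149 fragments in q2 and 1030 in q1 (Ackr3, log2 ratio -2.78 ± 0.27). The 5 B cell markers described held 3812 to 40102 fragments in q2 and 4107 to 37926 in q1, and Cr2, which marks MZBs, held 70851 in q2 and 81167 in q1. Values after ± are SDs derived from the deposited variances. With 1 value per condition there is no replicate check, so no test was made and no p-value is given.

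E proteins bind DNA as dimers at the E-box, a short palindromic motif with the letters CANNTG. Id proteins have the helix-loop-helix but no basic DNA-binding region, so an E protein held by an Id protein cannot bind DNA, and the amount of free E protein depends on both families. In the mouse, Tcf3 (E2A) is needed for commitment to the B lineage, and in the spleen the dose of E2A and Id3 affects the choice between marginal zone and follicular fates. Id genes are also known as early targets of BMP signalling and, for Id3 in thymocytes, of antigen receptor signalling through Egr1.

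Promoter windows were searched for the motif that E proteins read, and those of Tcf3, the most abundant E protein gene per kb of its longest transcript, and of Id2, an Id gene that differed between the columns, are shown. RefSeq windows (GRCm38.p6) of 250 bases before the gene start were found for 4 of the 6 members: Tcf3, Tcf12, Id2 and Id3. Each stretch is written 5′ to 3′ in the gene's direction, and capitals mark the E-box (CANNTG). The Tcf3 stretch, chr10:80433648-80433885 on the minus strand, ends where the gene begins in GENCODE M21. The Id2 stretch, chr12:25096254-25096342 on the minus strand, lies before the RefSeq start but within an intron of a longer GENCODE transcript, and ends where the next exon of that transcript begins.
Tcf3: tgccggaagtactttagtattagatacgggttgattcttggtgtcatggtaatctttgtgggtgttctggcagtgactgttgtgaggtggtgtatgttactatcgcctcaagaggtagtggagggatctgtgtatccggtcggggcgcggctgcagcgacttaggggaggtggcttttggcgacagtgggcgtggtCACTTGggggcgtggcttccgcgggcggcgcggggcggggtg
Id2: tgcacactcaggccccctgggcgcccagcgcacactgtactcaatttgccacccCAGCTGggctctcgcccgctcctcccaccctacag

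The Tcf3 window held 1 E-box with the letters CACTTG, whose first base lay 54 bases before the RefSeq start. The Id2 window held 1 with the letters CAGCTG, starting 196 bases before it. Of the 3 Tcf12 windows, 2 held 1 E-box each (CAGCTG and CAAGTG), and the Id3 window held 0. At least 1 E-box was present in 66.2% of 32851 windows of the same length, so a single match is common. The Id2 window further held 3 matches to CCAAT, which 33.8% of all windows held at least once and 10.1% held 2 or more times. They began 159, 120 and 76 bases before the RefSeq start, past the printed stretch, which ends where a GENCODE exon begins. The letters TATAA were found in the Id3 window, 29 bases before the RefSeq start, and in 22.8% of all windows. In GENCODE M21 this Id3 match lies inside the gene, which begins farther upstream at chr4:136143497. The EGR letters GCGNGGGCG were in none of the windows of these 4 genes and in 4.7% of all windows. Both strands were searched, no match overlapped another, and a match describes letters only.

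The 3 E protein genes were abundant and nearly equal in both columns. Tcf3, the gene of E12 and E47, had 3795 ± 327 fragments in q2 and 3833 ± 331 in q1, a log2 ratio of -0.01 ± 0.18. Tcf12 (HEB), best known from thymocyte development, had 1948 ± 172 in q2 and 1935 ± 172 in q1, at 0.01 ± 0.18. Tcf4 (E2-2), which plasmacytoid dendritic cells require, had 5383 ± 465 in q2 and 5928 ± 512 in q1, at -0.14 ± 0.18. For each of the 3 genes the columns lay within 1 SD of each other. The 95% intervals from the deposited SDs ran from -0.36 to 0.33 for Tcf3, from -0.34 to 0.36 for Tcf12 and from -0.48 to 0.21 for Tcf4, and differences within those intervals could not be told from 0 in this table. Among the 9582 genes, 92.4% were farther apart than Tcf3, 95.3% farther than Tcf12 and 37.6% farther than Tcf4.

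Id2 and Id3 differed between the columns in opposite directions. Id2, which natural killer and innate lymphoid cells require, had 380 ± 45.0 fragments in q2 and 537 ± 58.3 in q1, a log2 ratio of -0.50 ± 0.23. Id3 had 426 ± 49.1 in q2 and 286 ± 37.3 in q1, a log2 ratio of 0.57 ± 0.25. Id2 was 1.41-fold lower in q2 and Id3 1.49-fold higher in q2, and for each gene the ranges of 1 SD around the 2 values did not overlap. Id1, a BMP target prominent in endothelial cells, had 3.16 ± 2.24 fragments in q2 and 2.17 ± 1.73 in q1, and its exact 95% counting interval for q2 over q1 ran from 0.181 to 15.4. Id4, the remaining family member, was at 0 in both columns, where a count of 0 allows up to 3 fragments. In bulk libraries such as these, fewer cells of a type and less RNA per cell cannot be told apart.

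**Figure D1:**
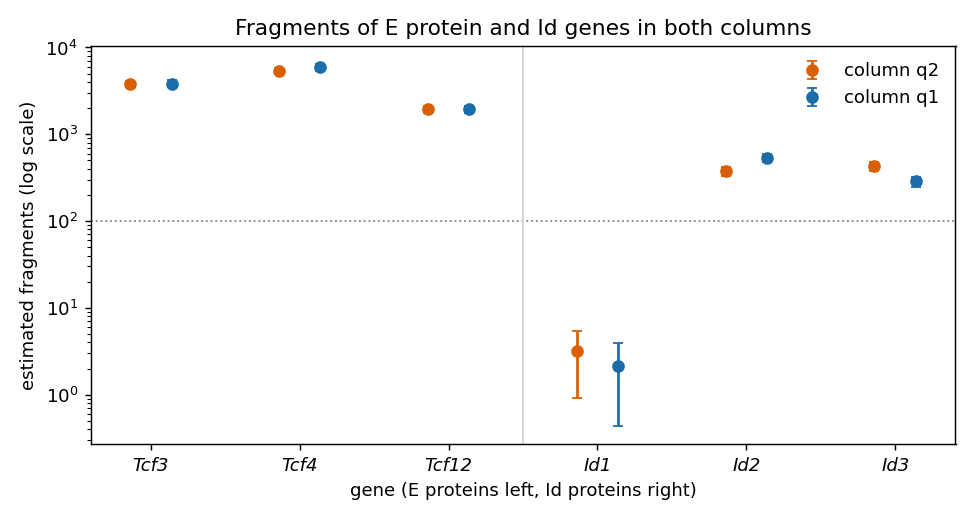
Estimated fragments (log axis) of each member in column q2 (orange) and column q1 (blue); bars are the SD from the deposited variance and the dotted line is the minimum of 100 fragments. The E protein points lie side by side, Id2 is lower in q2 (380 in q2 against 537 in q1), Id3 is higher in q2 (426 in q2 against 286 in q1), and Id1 is near 3 fragments.

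None of the 5 members above the minimum was 2-fold or 1.5-fold apart. A 2-fold or larger ratio was seen in 2.28% of the 9582 genes (1.84% higher in q2 and 0.438% higher in q1). One of at least 1.5-fold was seen in 4.97% (3.39% higher in q2 and 1.58% higher in q1). At shares this small, none among 5 genes is the usual outcome and does not set the members apart. By the smaller yardstick of 2 deposited SDs, Id3 (2.28 SD, higher in q2) and Id2 (2.15 SD, higher in q1) were past the line and the 3 E protein genes were not. Of all 9582 genes, 6.26% were past it, with 4.15% higher in q2 and 2.11% higher in q1. The members were chosen with earlier results known, so this count of 2 of 5 describes them and tests nothing. For comparison, 5.06% of all genes had a larger absolute ratio than Id3 and 6.22% a larger one than Id2. Among the 500 genes nearest in mean count the shares were 5.2% for Id3 and 4.6% for Id2, with median absolute log2 ratios of 0.11 and 0.10 in those neighbours. Counting error alone put the fold of q2 over q1 between 1.28 and 1.73 for Id3 and between 0.619 and 0.808 for Id2. The same interval also left out 1 for Tcf4 (0.875 to 0.942), and it held 1 for Tcf3 (0.946 to 1.04) and Tcf12 (0.944 to 1.07).

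**Figure D2:**
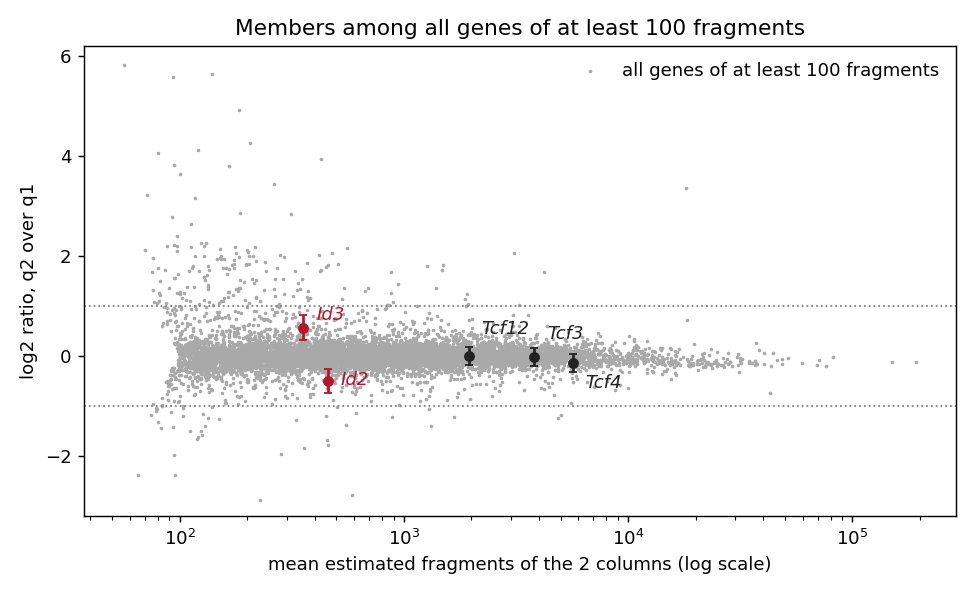
Log2 ratio of q2 over q1 against mean fragments (log axis) for the 9582 genes of at least 100 fragments (grey), with the E protein genes (black) and Id2 and Id3 (red) and their SDs; dotted lines mark 2-fold. Id3 (0.57) and Id2 (-0.50) lie at opposite edges of the bulk of genes, and Tcf3, Tcf4 and Tcf12 lie within it.

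The composition of the Id transcripts differed more than their sum. The 3 Id genes summed to 809 ± 66.7 fragments in q2 and 825 ± 69.3 in q1. The fragment ratio of Id3 over Id2 was 1.12 in q2 and 0.534 in q1, or 0.17 ± 0.24 in q2 and -0.91 ± 0.24 in q1 on the log2 scale, and it was 2.10 times as high in q2. These Id3 and Id2 comparisons, and the Id2 share, were chosen after the values of both genes were seen, and they restate the opposite directions above. Per kb of the longest annotated transcript, Id2 supplied 36.5% (SD 3.82) of the Id level in q2 and 54.7% (SD 4.19) in q1, 18.2 percentage points lower in q2 (SD 5.67). With the exon union or the median transcript as the length, the Id2 share was 39.3% or 34.0% in q2 and 57.6% or 52.0% in q1. By the longest transcript, the levels of Id2 and Id3 in q1 lay 1.17 SD apart, so which gene led there was not resolved.

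Levels of different genes were compared per kb of the longest GENCODE M21 transcript, which is 2950 bases for Tcf3, 8577 for Tcf4, 6299 for Tcf12, 1160 for Id1, 1969 for Id2 and 1278 for Id3. In q2 the order was Tcf3 (1286 ± 111 fragments per kb), Tcf4 (628 ± 54.2), Id3 (333 ± 38.4), Tcf12 (309 ± 27.2), Id2 (193 ± 22.9) and Id1 (2.73 ± 1.93). Neighbours in that order lay at least 3.27 SD apart except Id3 and Tcf12, at 0.511 SD. In q1 the order was Tcf3 (1299 ± 112), Tcf4 (691 ± 59.7), Tcf12 (307 ± 27.4), Id2 (273 ± 29.6), Id3 (224 ± 29.2) and Id1 (1.87 ± 1.49). There Tcf12 and Id2 (0.861 SD) and Id2 and Id3 (1.17 SD) did not differ beyond their spread. Tcf3 was above 93.4% of 9165 genes per kb in q2 and above 93.5% in q1. Tcf4 was above 81.8% in q2 and 84.3% in q1, and Tcf12 above 60.6% and 60.8%. Id3 was above 63.5% in q2 and 48.5% in q1, and Id2 above 42.7% and 56.1%.

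The order rests on the length chosen, since the table does not say which isoforms were read. With the median transcript length, 941 bases for Tcf4, that gene came first, at 5720 fragments per kb in q2 and 6300 in q1. With the union of all exons, 27382 bases for Tcf4, the level of Tcf4 was 197 in q2 and 216 in q1, below Id3 in q2 (238) and near Id2 in q1 (220). By that length Tcf12, at 125 in both columns, was below Id2 (156 in q2 and 220 in q1) and Id3 (238 in q2 and 160 in q1). Tcf3 led under the longest transcript and under the exon union, and Id1 was last under all 3 lengths. In GENCODE M21 (GRCm38) Tcf3 spans chr10:80409514-80433647 and Tcf12 chr9:71842688-72111871, both on the minus strand, and Tcf4 spans chr18:69343356-69689079 on the plus strand. Id1 spans chr2:152736251-152737410 and Id3 chr4:136143497-136145755, both on the plus strand, and Id2 spans chr12:25093799-25097140 on the minus strand. The annotation places no other gene over Tcf3, Id1, Id2 or Id3, but 1 over Tcf4 and 11 over Tcf12 (7 on the same strand), none of them in the table.

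The summed E protein level was 2223 ± 126 fragments per kb in q2 and 2298 ± 130 in q1, and the summed Id level was 529 ± 44.7 in q2 and 498 ± 41.6 in q1. E protein over Id transcripts stood at 4.20 in q2 and 4.61 in q1, a log2 ratio of -0.13 ± 0.21, so the columns were within 1 SD of each other. The ratio itself was 9.28 in q2 and 10.8 in q1 by median length, and 3.18 in q2 and 3.38 in q1 by exon union. By the longest transcript, Tcf3 gave 57.9% of the E protein sum in q2 and 56.5% in q1. Tcf4 gave 28.2% and 30.1%, and Tcf12 13.9% and 13.4%. Which gene gave most rests on the length chosen. By median length it was Tcf4, with 70.1% in q2 and 72.1% in q1, and Tcf3 gave 16.5% and 15.5%. By exon union it was Tcf3, with 74.5% in q2 and 73.6% in q1, and Tcf4 gave 15.6% and 16.8%.

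**Figure D3:**
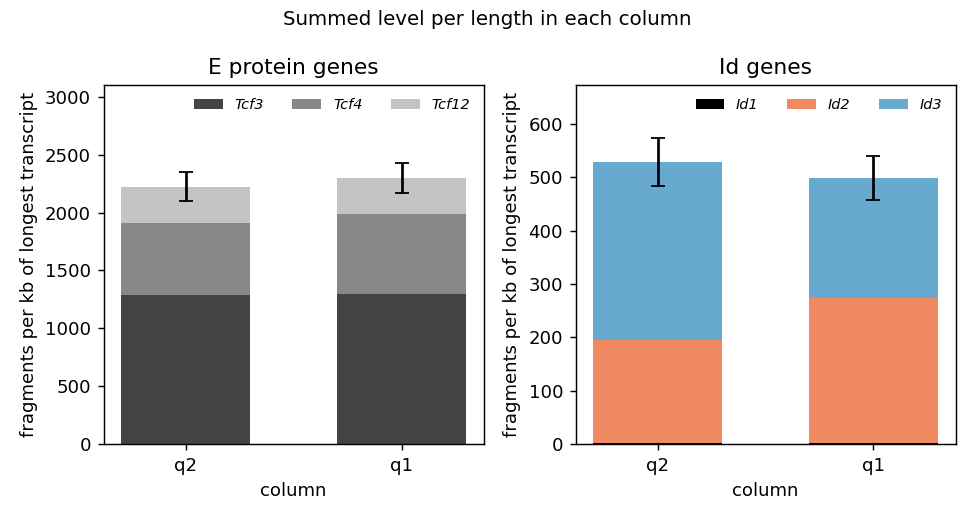
Stacked fragments per kb of the longest transcript for the E protein genes (left) and the Id genes (right) in columns q2 and q1; bars at the top are the SD of the sum. Both sums are within 1 SD between columns (2223 and 2298 for E proteins, 529 and 498 for Id genes), while Id2 makes up 36.5% of the Id level in q2 and 54.7% in q1; Id1 is too low to be seen.

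The genes that work with or on E and Id proteins were compared by list. Of all 9582 genes of at least 100 fragments, 50.2% were higher in q2 and 49.8% in q1. Only 2.28% of them were 2-fold apart and 6.26% were past 2 SD, with a median absolute log2 ratio of 0.10. A list with no gene 2-fold apart is therefore the usual case. Of 10 tissue-restricted dimer partners of E proteins, only Lyl1, a partner known from blood cells, reached 100 fragments, with 1926 in q2 and 2051 in q1, and 7 had fewer than 3 fragments in each column. Of 9 coactivators and corepressors above the minimum, the column q2 was higher for 4 and q1 for 5, none by 2-fold, and the median log2 ratio was -0.02. Lmo2, a bridging factor of E protein complexes, had 1862 fragments in q2 and 1380 in q1, at 0.43 ± 0.18, and was the member of that group past 2 SD. Its relative Lmo4 had 501 in q2 and 373 in q1, at 0.43 ± 0.23. The acetyltransferase gene Kat2a stood at -0.24 ± 0.18 and Ldb1, which binds LIM-only proteins, at -0.17 ± 0.18. The 2 repressors of E-boxes above the minimum, Zeb1 and Zeb2, stood at -0.09 ± 0.18 and 0.04 ± 0.19.

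Among 8 genes of E and Id protein turnover, 6 had the larger value in q2 and 2 in q1, none by 2-fold, around a median of 0.07. Asb2, a subunit of an E3 ligase through which Notch signalling lowers E2A, had 1241 fragments in q2 and 2196 in q1, a log2 ratio of -0.82 ± 0.18 and 4.46 SD. It is also on the MZB marker list, of which all 8 genes were higher in q1 (median -0.57). Usp1, a deubiquitinase that stabilises Id proteins, had 1617 fragments in q2 and 1242 in q1, at 0.38 ± 0.19 and 2.04 SD. Skp2, an F-box protein, stood at 0.29 ± 0.48 and Skp1a, its ligase partner, at 0.13 ± 0.19.

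Of the 15 B lineage targets of E proteins described here, 9 reached the minimum; 3 had the larger value in q2 and 6 in q1, none by 2-fold or by 2 SD, around a median log2 ratio of -0.02. Irf4, a regulator of plasma cell fate, had 8357 fragments in q2 and 10113 in q1, at -0.28 ± 0.18. Irf8, a B cell and myeloid regulator, had 7227 in q2 and 6127 in q1, at 0.24 ± 0.18, and Foxo1, a factor of early B cell identity, stood at 0.19 ± 0.18. Pou2af1, a B cell coactivator of octamer-binding factors, stood at 0.16 ± 0.18. The B cell receptor chain gene Cd79a (-0.02 ± 0.22) and the lineage factors Ebf1 (-0.01 ± 0.18) and Pax5 (-0.11 ± 0.18) were within 1 SD. Rag1, Rag2, Igll1 and Vpreb1, targets of early B cell development, had fewer than 3 fragments in each column. The other 2 lay below the minimum and were higher in q2. Gfi1, a transcriptional repressor, had 65.5 fragments in q2 and 30.2 in q1, at 2.18 SD. Its 2.17-fold ratio had an exact 95% counting interval of 1.39 to 3.46. Cdkn1a, a cell cycle inhibitor, had 12.9 in q2 and 3.50 in q1, at 1.75 SD and so not past 2 SD. Its 3.68-fold ratio had a counting interval of 1.08 to 17.4.

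Of 22 genes of the BMP, TGF-β and EGR inputs to Id genes, 14 reached the minimum, 9 with the larger value in q2 and 5 in q1, none by 2-fold, around a median of 0.03. Smad3, a signal transducer of TGF-β, had 1875 fragments in q2 and 2766 in q1, at -0.56 ± 0.18 and 3.12 SD, and no other of the 14 was past 2 SD. Egr2 stood at -0.36 ± 0.22, Skil, an inhibitor of SMADs, at 0.25 ± 0.18, and Egr3 at -0.10 ± 0.18. Egr1 itself, with 2380 fragments in q2 and 2299 in q1, stood at 0.05 ± 0.18. Among the BMP and activin receptors, Acvr2a reached the minimum, with 157 fragments in q2 and 168 in q1, at -0.10 ± 0.55. Bmpr1a, a type I BMP receptor below the minimum, had 52.3 in q2 and 12.3 in q1, a 4.26-fold ratio with an exact 95% counting interval of 2.26 to 8.68, at 3.18 SD. Smad6, also below the minimum, went the other way, with 2.57 in q2 and 11.3 in q1. Its counting interval for q2 over q1 was 0.0346 to 0.922, at 1.83 SD. Over all 22 genes, 14 were higher in q2 and 7 in q1, but 4 of the 22 had fewer than 3 fragments in each column. The share over all genes was computed only above the minimum, so this count has no background beside it. Bmpr2 had 38.7 fragments in q2 and 38.4 in q1, and Bmpr1b was at 0 in both columns.

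**Figure D4:**
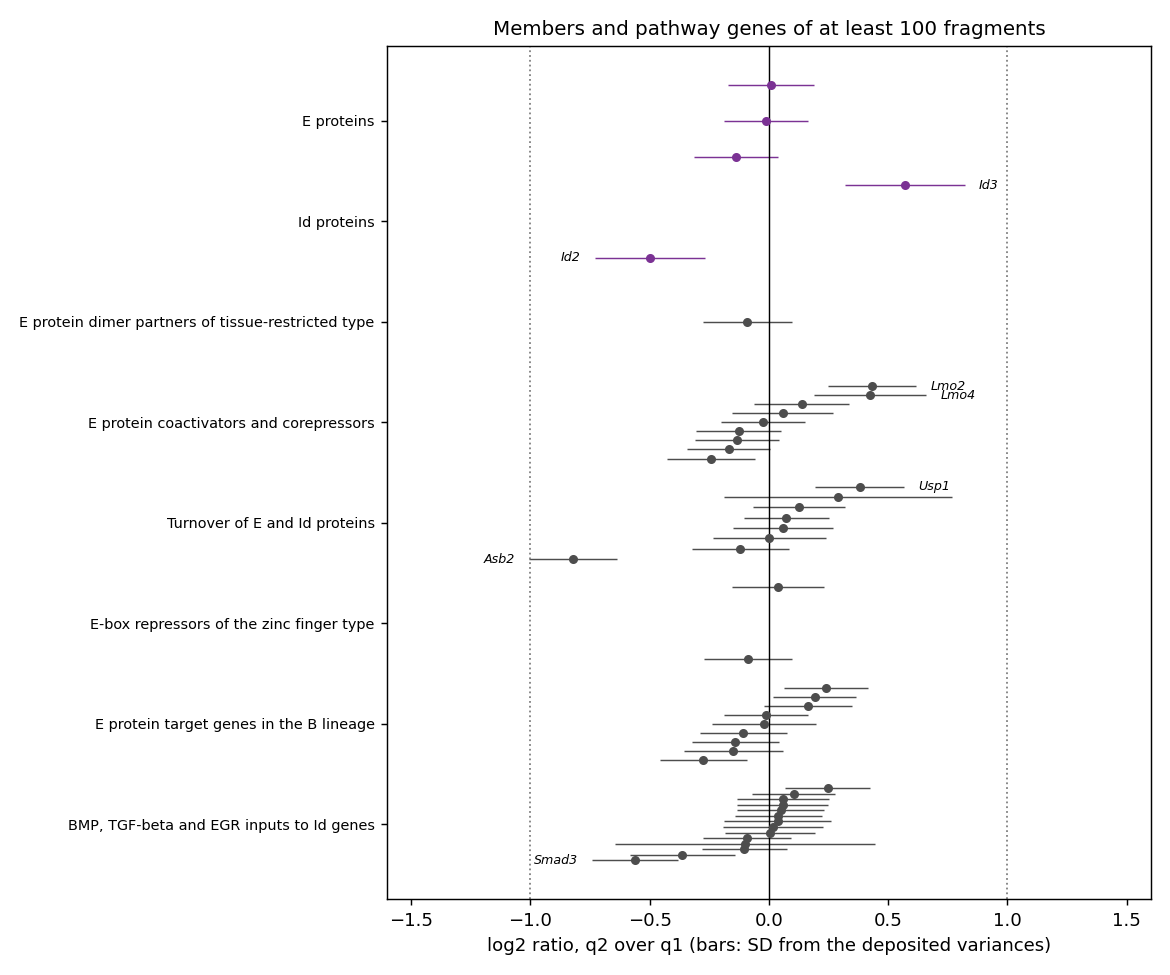
Log2 ratio of q2 over q1 for members (purple) and pathway genes (grey) of at least 100 fragments, by list, with SD bars and dotted lines at 2-fold; genes beyond 0.37 in size are named. None of the genes drawn is past 2-fold; Id3 (0.57), Lmo2 (0.43), Lmo4 (0.43) and Usp1 (0.38) lie farthest on the q2 side and Asb2 (-0.82), Smad3 (-0.56) and Id2 (-0.50) on the q1 side.

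Markers of other B cell states and of other cells also differed between the columns. All 9 germinal center markers described were higher in q2, with sums of 3044 fragments in q2 and 748 in q1, as were all 8 proliferation markers, with 9430 in q2 and 2456 in q1, and all 6 follicular markers, with 13089 in q2 and 7877 in q1. Of 7 plasma cell markers 6 were higher in q2, with sums of 53124 in q2 and 17919 in q1. Most of the q2 sum came from Igj (33006 in q2 and 3234 in q1). Most of the q1 sum came from Irf4 (8357 in q2 and 10113 in q1), the marker that was higher in q1. All 9 T cell markers were higher in q2, with a range of 33.7 to 689 fragments in q2 and 22.8 to 524 in q1. Only 3 of the 9 reached the minimum. Cd28, with 165 in q2 and 30.3 in q1 (5.24 SD), was the only T cell marker past 2 SD. Of 12 macrophage and monocyte markers 10 were higher in q1, and the 12 summed to 960 in q2 and 1387 in q1. Among the 7 above the minimum, Csf1r, Slc40a1, Hmox1 and Vcam1 were at least 2-fold higher in q1 and past 2 SD. Ly6c2 (208 in q2 and 59.4 in q1) and Emr1 (146 in q2 and 85.8 in q1) were past 2 SD the other way. Id2 is high in natural killer and innate lymphoid cells; of their 8 markers, Prf1 was the only one above the minimum and was higher in q1, with 190 in q2 and 265 in q1. The other 7 lay below the minimum, each higher in q2 by less than 2 SD, and the 8 summed to 355 in q2 and 366 in q1. The 8 conventional dendritic cell markers, of which 4 had fewer than 3 fragments in each column, summed to 388 in q2 and 220 in q1. Most of both sums came from Flt3 (156 in q2 and 81.0 in q1) and Itgax (177 in q2 and 80.4 in q1). Of the 8, 5 were higher in q2 and 3 in q1, among them Zbtb46 with 18.1 in q2 and 27.0 in q1. The 7 plasmacytoid dendritic cell markers summed to 889 in q2 and 1096 in q1, most of it from Pacsin1 and Lair1, while Siglech had 5.11 fragments in q2 and 13.7 in q1. No marker of these other cells was at 0 in either column, and the part of any of these cells or states in the Id2 and Id3 values was not tested.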

How the data were processed

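Total RNA was taken up in Trizol and made into TruSeq libraries, per the labels' protocols. The submitters' processing notes name cutadapt 1.8.1, TopHat2 2.0.14, Cuffdiff 2.2.1 and mm10; the annotation, strand setting and filters were not given in the sources used here. The deposited table has, per the file headers, an estimated count for each gene and condition with a variance in squared fragments; it pools the libraries of a condition, and how the columns were scaled is not stated. No gene had variance from isoform assignment. The log2 ratio is q2 over q1 with a pseudocount of 1, its SD to first order from the deposited variances; whether these refer to 1 library or to a condition's mean is not stated. Size rules were 2-fold and 1.5-fold for genes of at least 100 fragments; the 2 SD rule was added after seeing the data. Counting intervals are exact 95% Clopper-Pearson intervals that treat estimates as counts and cover counting error only. Lengths, positions and overlaps are from GENCODE M21 (GRCm38), to which 22694 symbols matched. Pathway genes were named by a rule: up to 4 per list with the largest absolute ratio. Others, such as Cd79a, Gfi1, Cdkn1a, Egr1, Acvr2a, Smad6, the BMP receptors and the markers, were chosen after their values were seen. Likeness of pattern between genes cannot be measured with 2 columns. Some listed genes are not reported here, and the counts, sums and medians of their lists leave them out. The members and lists were chosen with earlier results of these data known. Calculations used Python 3.11.15, pandas 2.3.3, scipy 1.17.1 and statsmodels 0.14.6 and were tested on simulated data.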

Additional observations from a re-analysis of the deposited data

How the results depend on the processing

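No paired analysis was possible because each condition has a single pooled value with no replicate number, which also means that leaving out a library could not be done. Under pseudocounts of 0 and 10, equal totals, scaling by the median ratio and an adjustment for length, GC content and mean count (the last added after seeing the data, and not available for Id1), the log2 ratio stayed between -0.55 and -0.48 for Id2 and between 0.56 and 0.60 for Id3, at least 2.07 and 2.22 of their SDs. It stayed between -0.18 and -0.12 for Tcf4, between -0.02 and 0.03 for Tcf12 and between 0.11 and 0.55 for Id1. Tcf3 was 0.089 with the adjustment, beyond counting error but within its SD, and the cause was not tested. Tcf3 also changed sign with equal totals (0.0050), and Tcf12 with the adjustment. The log2 ratio of E protein over Id levels was -0.09 by exon union, -0.21 by median length and -0.25 as a mean of logs. The mean of logs gives Id1, with 3.16 fragments in q2 and 2.17 in q1, the same weight as Id2 and Id3. Column scaling cancels in this ratio, so equal totals could not change it from -0.13. A 2-fold or larger ratio was found for 176 genes toward q2 and 42 toward q1; the counts were 346 and 102 with a minimum of 20 fragments, 39 and 14 with 500, 325 and 151 at 1.5-fold, and 398 and 202 past 2 SD, since more or fewer genes met each rule. A minimum of 500 would leave out Id3. Precision near 0 is limited by the depth of the columns, and the spread between mice cannot be seen.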
